A study of Mus musculus with 12 samples.

Results

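The genes described here are the enzymes that make cholesterol together with the SREBP2 regulatory circuit, 26 genes of the 24062 listed in the counts. They were matched by gene symbol, and every one of them was found, had counts in all 12 libraries and passed the filter on low counts that left 12015 genes for testing. They comprise 20 enzymes (8 of the mevalonate arm, 3 that make squalene and lanosterol, 9 that convert lanosterol to cholesterol), SREBP2 itself (Srebf2) with its partners Scap, Insig1 and Insig2, and the sterol handling genes Mylip and Stard4. Liver RNA was sequenced from male mice aged 14 weeks on a mixed 129SvEV-C57BL/6 background, all carrying floxed Nr5a2, the gene of the nuclear receptor LRH-1. Control animals were Nr5a2 fl (F/F) and, per the series' text, received AAV8-eGFP. Knockout animals were Nr5a2 fl;AAV8-Cre, that is, Cre recombinase was delivered by an adeno-associated virus vector, whose promoter is not stated in the labels. Diets lasted 6 weeks: a standard diet (SD), with 3 libraries of each genotype, or the high-fat diet D12492 (HFD), with 4 libraries from controls and 2 from knockouts.

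Values are CPM, counts per 1000000 of normalized library size. The SD libraries held 2371167 to 3404570 counts and the HFD libraries 7463792 to 10875478, so diet and sequencing depth cannot be told apart. Reads of ribosomal RNA (Rn45s) also differed by diet, with shares of 0.291% to 0.460% in the SD libraries and 0.985% to 1.32% in the HFD libraries. Nr5a2 itself stood at 74.8 to 85.8 CPM in SD controls and 94.7 to 100.1 in SD knockouts, and at 64.3 to 77.0 in HFD controls and 69.1 and 84.5 in HFD knockouts. It was therefore not lower in the libraries labelled knockout (log2 fold change 0.24, SE 0.11, adjusted p = 0.288 on SD, and 0.12, SE 0.11, adjusted p = 0.719 on HFD). The labels do not state which exons were deleted, and counts per gene cover the whole transcript, so groups are named by their labels. On the second principal component of all tested genes HFD control 1 lay at -3.34, apart from HFD controls 2, 3 and 4 at 11.8 to 18.8, and the knockouts on that diet lay at -24.4 and -20.6. The knockout results of Insig1, Hmgcs1 and Stard4 are given with and without HFD control 1. Other calls that changed without it are within the counts of lost calls. Hepatocyte markers (Alb, Apob, Ttr, Tat, Hnf4a, Serpina1a) were present in every library, with summed levels of 111291 to 179715 CPM. In bulk tissue, fewer cells of a type and less RNA per cell cannot be told apart.

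Cholesterol is built from acetyl-CoA. The mevalonate arm makes isoprenoid units, which are joined to farnesyl diphosphate and then to squalene, and squalene is closed to lanosterol, the first sterol. Lanosterol is then trimmed and rearranged to cholesterol in the endoplasmic reticulum. SREBP2 is a membrane-bound transcription factor that switches on nearly all of these enzymes. When sterols are low, SCAP escorts it to the Golgi for cleavage, and when sterols are high the INSIG proteins hold SCAP back. Insig1 is itself an SREBP target, which closes a feedback loop, whereas liver Insig2 is regulated differently. LRH-1 is best known in liver for bile acid synthesis, the main route by which cholesterol is broken down.

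The promoters of the members that the knockout comparisons turn on are shown first, with that of Hmgcs1, a textbook SREBP target, for comparison. Each is the 250 bases before the start of the RefSeq transcript on assembly GRCm38.p6, written 5′ to 3′ on the gene's strand. Capitals mark the SREBP element TCACNCCAC and the NF-Y box CCAAT, which reads ATTGG on the other strand, both searched on both strands.
Insig1, chr5:28071162-28071411, plus strand: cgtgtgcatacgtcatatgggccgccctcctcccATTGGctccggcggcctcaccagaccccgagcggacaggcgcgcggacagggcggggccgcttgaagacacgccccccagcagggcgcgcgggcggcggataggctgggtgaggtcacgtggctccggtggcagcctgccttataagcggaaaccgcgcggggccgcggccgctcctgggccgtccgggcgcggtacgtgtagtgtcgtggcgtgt
Tm7sf2, chr19:6067851-6068100, minus strand: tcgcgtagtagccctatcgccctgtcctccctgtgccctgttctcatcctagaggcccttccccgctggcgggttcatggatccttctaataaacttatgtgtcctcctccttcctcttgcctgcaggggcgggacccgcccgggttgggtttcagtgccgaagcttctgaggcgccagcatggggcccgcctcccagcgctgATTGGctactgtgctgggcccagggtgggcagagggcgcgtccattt
Sc5d, chr9:42264301-42264550, minus strand: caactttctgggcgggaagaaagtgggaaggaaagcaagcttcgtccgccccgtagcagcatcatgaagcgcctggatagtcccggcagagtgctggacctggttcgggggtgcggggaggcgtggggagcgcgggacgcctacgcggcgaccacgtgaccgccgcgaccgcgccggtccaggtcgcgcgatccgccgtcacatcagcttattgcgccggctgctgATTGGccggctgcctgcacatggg
Hsd17b7, chr1:169969206-169969455, minus strand: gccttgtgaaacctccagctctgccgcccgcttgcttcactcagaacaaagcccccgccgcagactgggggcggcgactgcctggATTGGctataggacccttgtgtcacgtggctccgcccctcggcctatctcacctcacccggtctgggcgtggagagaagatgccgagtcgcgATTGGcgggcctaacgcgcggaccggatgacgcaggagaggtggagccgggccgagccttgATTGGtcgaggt
Hmgcs1, chr13:119690101-119690350, plus strand: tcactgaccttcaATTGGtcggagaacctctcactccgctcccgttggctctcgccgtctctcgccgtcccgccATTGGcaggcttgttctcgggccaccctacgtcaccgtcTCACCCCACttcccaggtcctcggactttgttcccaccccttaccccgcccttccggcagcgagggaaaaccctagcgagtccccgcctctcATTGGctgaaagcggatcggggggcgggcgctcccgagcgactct
The authors' counts were made on mm9, so these coordinates belong to the RefSeq windows and not to the counted reads. NF-Y is a general promoter factor that works beside SREBPs. Its box was the common feature: over windows of 250 bases before to 50 bases after the start, 20 of the 22 members with a RefSeq window held CCAAT on either strand, whereas 41.1% of 27025 genes did. Acat2 and Scap were the members with a window that lacked it. The SREBP element in this spelling was found in Hmgcs1 alone, at bases -137 to -129 from the start, against 1.44% of all genes. A monomer motif of LRH-1, CAAGGNCA on either strand, was found in Dhcr7 alone (CAAGGTCA, bases -52 to -45), against 7.64% of all genes. A match describes letters in the window and is not evidence of binding.

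Levels were compared between genes per kilobase of the longest protein-coding GENCODE transcript. In SD controls Insig1 was the most abundant member, with a mean of 98.8 CPM per kilobase (90.5 to 104.6), followed by Sc5d, the lathosterol desaturase, at 68.7 (64.9 to 74.7). Ebp, the sterol isomerase, stood at 48.5 (43.7 to 53.6). Cyp51, which removes the lanosterol 14-methyl group, Insig2, the methyl sterol oxidase Msmo1, Hmgcs1 and Fdft1, the squalene synthase, followed at 39.5, 36.3, 35.0, 33.1 and 31.2, with ranges that overlapped from each to the next. Of the 4 members at the bottom of the order 3 were mevalonate enzymes. The transcription factor gene Srebf2 stood at 1.70, mevalonate kinase (Mvk) at 1.60, isopentenyl diphosphate isomerase (Idi1) at 1.07 and mevalonate diphosphate decarboxylase (Mvd) at 0.910, again with overlapping neighbours. In HFD controls Insig1 still led, at 131, but farnesyl diphosphate synthase (Fdps), at 8.58 in SD controls, stood at 84.7, and Idi1 at 56.3.

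On SD, 3 members were lower in knockouts and none was higher: Insig1, Tm7sf2 and Sc5d. Tm7sf2 and Sc5d belong to the 9 late enzymes, and Insig1 to the regulators, while none of the 8 mevalonate enzymes and none of the 3 that make squalene and lanosterol passed. A gene passed at a Benjamini-Hochberg adjusted p under 0.05 over all genes tested in edgeR's quasi-likelihood test. Over all genes 2.94% were lower and 1.44% higher by the same rule. Knockouts lay below all controls in 3 of the 26 members and above all in 1, beside 12.3% and 10.3% of all genes. Over the 26 members the median log2 fold change was -0.08, with 17 below 0 and 9 above, beside 0.00 over all genes tested.

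Insig1, the sterol-sensing anchor of SCAP, measured 244, 273 and 282 CPM on SD in control livers and 145, 166 and 169 in knockout livers. Every knockout lay below every control. The means were 266 ± 19.9 (SD, n = 3) and 160.0 ± 13.4 (SD, n = 3), a log2 fold change of -0.74 (SE 0.15, adjusted p = 0.0118). Without SD control 3 the adjusted p was 0.0602. Its paralog Insig2, which does the same job, stood at 116, 84.8 and 92.5 in controls and 161, 109.7 and 84.3 in knockouts, with overlapping groups. The ratio of Insig1 to Insig2 counts, not scaled by length, was 2.1, 3.22 and 3.05 in the controls and 0.897, 1.51 and 2.01 in the knockouts. On HFD this ratio overlapped, at 0.987 to 3.75 in controls and 1.28 and 1.53 in knockouts.

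Tm7sf2, a sterol reductase that removes the double bond left by Cyp51, stood at 33.6, 44.6 and 37.2 CPM in controls and 15.7, 21.2 and 19.2 in knockouts. The groups did not overlap, and the fold change was the largest among the 26 members on SD. The log2 fold change was -1.05 (SE 0.22, adjusted p = 0.0144). The adjusted p was 0.0510 to 0.0636 without SD control 2, SD control 3, SD knockout 1 or SD knockout 3, each left out alone. Lbr, the lamin B receptor, carries the same reductase activity. It stood at 20.5 to 23.2 in controls and 16.8 to 23.0 in knockouts, with a log2 fold change of -0.08 (SE 0.15, adjusted p = 0.850). The ratio of Tm7sf2 to Lbr counts, not scaled by length, was 1.54 to 2.18 in the control libraries and 0.681 to 1.26 in the knockouts. On HFD this ratio overlapped, at 3.15 to 3.80 in controls and 3.42 and 1.82 in knockouts.

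Sc5d, which places the double bond that Dhcr7 leaves in cholesterol, stood at 311, 318 and 358 CPM in controls and 172, 229 and 224 in knockouts. Again every knockout lay below every control, with a log2 fold change of -0.66 (SE 0.16, adjusted p = 0.0241). This call was the least stable: the adjusted p was 0.0528 to 0.122 without any one of SD control 2, SD control 3 or the 3 knockouts.

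**Figure D1:**
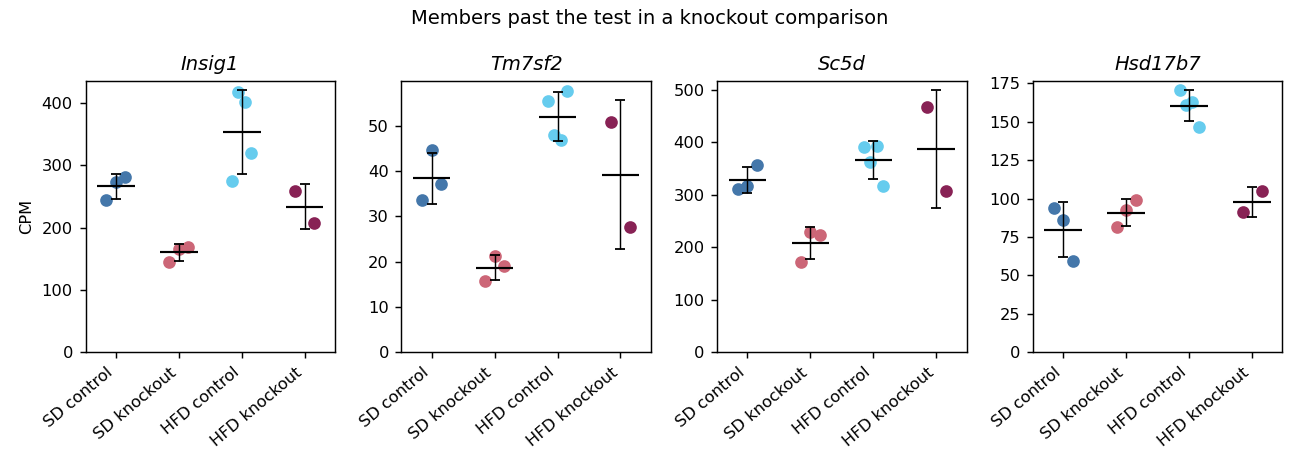
CPM of the 4 members that passed in a knockout comparison, 1 panel per gene, with a point per library, the group mean as a line and the SD as a bar. Insig1, Tm7sf2 and Sc5d lie lower in all 3 SD knockouts than in any SD control, while Hsd17b7 lies lower in the 2 HFD knockouts than in the HFD controls, which stand at 147 to 171 CPM.

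The other members on SD did not pass. Srebf2 was the single gene whose knockouts all lay above the controls (9.33 to 13.2 against 7.81 to 9.24 CPM), at a log2 fold change of 0.38 (SE 0.20, adjusted p = 0.388). Groups that do not overlap were found above for 10.3% and below for 12.3% of all genes. Scap stood at 82.0 to 86.4 CPM in controls and 76.7 to 91.6 in knockouts. Of the mevalonate enzymes 7 had a log2 fold change below 0, from -0.66 (SE 0.44) for Fdps to -0.06 (SE 0.28) for phosphomevalonate kinase (Pmvk), and Idi1 stood at 0.46 (SE 0.59), with adjusted p-values of 0.486 or more. Squalene epoxidase (Sqle), the first oxygen-requiring step, spread most: 19.9 to 29.3 CPM in controls, but 7.0, 40.8 and 51.9 in the knockouts. Stard4, a cholesterol carrier between membranes, stood at 44.9 to 53.9 and 31.3 to 51.2, and Mylip, a ubiquitin ligase that degrades lipoprotein receptors, at 6.64 to 14.3 and 7.60 to 13.0.

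On HFD, 1 member was lower in knockouts and none was higher, beside 1.66% and 1.04% of all genes. This was Hsd17b7, the ketoreductase of the demethylation steps that follow Cyp51, and it was none of the genes that passed on SD. Control livers measured 171, 161, 163 and 147 CPM and knockout livers 91.0 and 105. Both knockouts lay below all controls, with means of 160.5 ± 10 (SD, n = 4) and 97.8 ± 9.66 (SD, n = 2). The log2 fold change was -0.71 (SE 0.15, adjusted p = 0.0163). With 1 HFD knockout left out the adjusted p was 0.258 or 0.0574, and after thinning all libraries to the smallest depth it was 0.0568.

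Insig1 gave a log2 fold change of similar size on HFD but missed the threshold. It stood at 275, 418, 402 and 319 CPM in controls and 259 and 208 in knockouts, so that the higher knockout lay just below the lowest control, HFD control 1. The log2 fold change was -0.60 (SE 0.16, adjusted p = 0.0618), and without HFD control 1 the adjusted p was 0.00921. Mvd (1.56 to 2.90 CPM in controls, 0.695 and 0.781 in knockouts) and Msmo1 (61.5 to 125, and 57.9 and 47.9) also did not overlap, at log2 fold changes of -1.60 (SE 0.51, adjusted p = 0.130) and -0.76 (SE 0.30, adjusted p = 0.235). Together with Hsd17b7 that made 4 members with knockouts below all controls and none above, beside 11.9% and 10.3% of all genes.

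Tm7sf2 and Sc5d did not pass on HFD, and in both genes the 2 knockouts stood far apart. Tm7sf2 stood at 46.9 to 57.8 CPM in controls and at 50.9 and 27.7 in knockouts. Its log2 fold change was -0.41 (SE 0.19, adjusted p = 0.357), but -0.90 (adjusted p = 0.0442) without HFD knockout 1 and -0.03 without HFD knockout 2. Sc5d stood at 316 to 394 in controls and at 468 and 308 in knockouts, a log2 fold change of 0.08 (SE 0.16). Hmgcs1, which makes the HMG-CoA that feeds the pathway, rested on single libraries too: it stood at 265, 115, 154 and 133 in controls and 281 and 166 in knockouts. Its log2 fold change of 0.41 (SE 0.26, adjusted p = 0.536) was 0.74 (adjusted p = 0.0327) without HFD control 1 and -0.01 without HFD knockout 1. The median over the 26 members was -0.10, with 16 below 0 and 10 above, beside -0.01 over all genes.

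**Figure D2:**
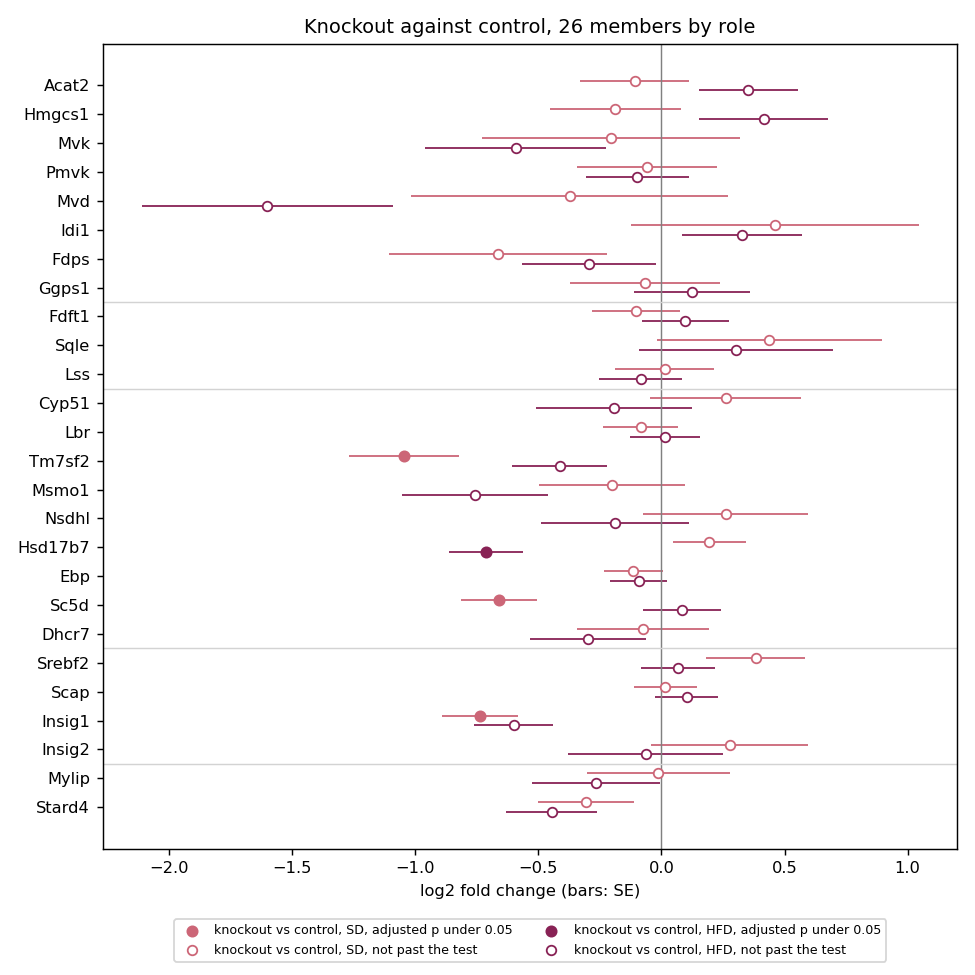
Log2 fold change of knockout against control for each of the 26 members on SD and on HFD, with bars of 1 SE. Filled points passed at an adjusted p under 0.05: Insig1, Tm7sf2 and Sc5d on SD and Hsd17b7 on HFD, all to the left of 0.

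Averaged over the diets, which uses all 12 libraries, Insig1 and Tm7sf2 were lower in knockouts and no member was higher, beside 5.36% and 3% of all genes. The mean log2 fold change of Insig1 was -0.67 (SE 0.11, adjusted p = 0.00134) and that of Tm7sf2 -0.73 (SE 0.15, adjusted p = 0.00597). These 2 calls held in all 17 alternative settings, with adjusted p-values up to 0.0134 and 0.0204. Stard4, at -0.38 (SE 0.13, adjusted p = 0.105), came next by its p-value. It passed in 3 of 17 alternatives, among them without HFD control 1 (-0.43, adjusted p = 0.0293). The knockout effect differed between diets for none of the 26 members in edgeR, where 0% of the 12015 genes passed in either direction. At an unadjusted p under 0.05 there were 3 of the 26 members, beside 911 of the 12015 genes: Hsd17b7 with a difference, HFD minus SD, of -0.91 (SE 0.21, adjusted p = 0.329), Sc5d with 0.74 (SE 0.22, adjusted p = 0.462) and Tm7sf2 with 0.63 (SE 0.29, adjusted p = 0.652). DESeq2 called Hsd17b7 alone among the members (adjusted p = 0.0255). A call on 1 diet and not on the other is therefore not shown to be a difference between diets by the edgeR test.

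In some libraries many enzymes lay to the same side of their group. SD knockout 1 was the lowest of its 3 libraries in 17 of the 20 enzymes, or 85.0%, beside 35.9% of all genes tested. The exceptions were Pmvk, Ggps1 and Lbr. Sqle, for example, stood at 7.0 CPM in it, Cyp51 at 91.3 against 234 and 233, the sterol dehydrogenase Nsdhl at 22.7 against 60.8 and 59.9, and Dhcr7, which makes the final reduction, at 15 against 31.6 and 38.3. Summed over the 16 enzymes without a pseudogene copy (copies are described further on), the level was 696 CPM in SD knockout 1, 1076 and 1094 in the other knockouts, and 1048 to 1086 in the controls. In the SD controls themselves no library stood out, each being the lowest in 6 to 8 of the 20 enzymes. The other 2 knockouts reached the controls in the sum, which holds moves in both directions. They lay above every control in Cyp51, Nsdhl, Sqle and Dhcr7. They lay below every control in Tm7sf2 and Sc5d, and in Insig1, which is not in the sum.

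On HFD, knockout 1 was the higher of its pair in 15 of 20 enzymes (75.0%, beside 49.6% of all genes). Its sum over the 16 enzymes was 1674 CPM, above the 1298 to 1567 of the controls, and that of HFD knockout 2 was 1157, below them. HFD control 2 was the lowest of its 4 libraries in 13 of 20 enzymes, beside 23.7% of all genes, and the highest in none. The median within-group SD of log2 CPM over the enzymes was 0.42 in SD knockouts and 0.49 in HFD knockouts, beside 0.22 and 0.16 over all genes. In controls it was 0.19 on SD and 0.20 on HFD, beside 0.24 and 0.20. The enzymes had a higher median level than all genes in each group (30.8 against 13.7 CPM in SD knockouts), and the difference in spread between genotypes was not tested. Many enzymes lay to the same side within a library, so the 20 are not independent values, and the HFD knockouts hold only 2 libraries.

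**Figure D3:**
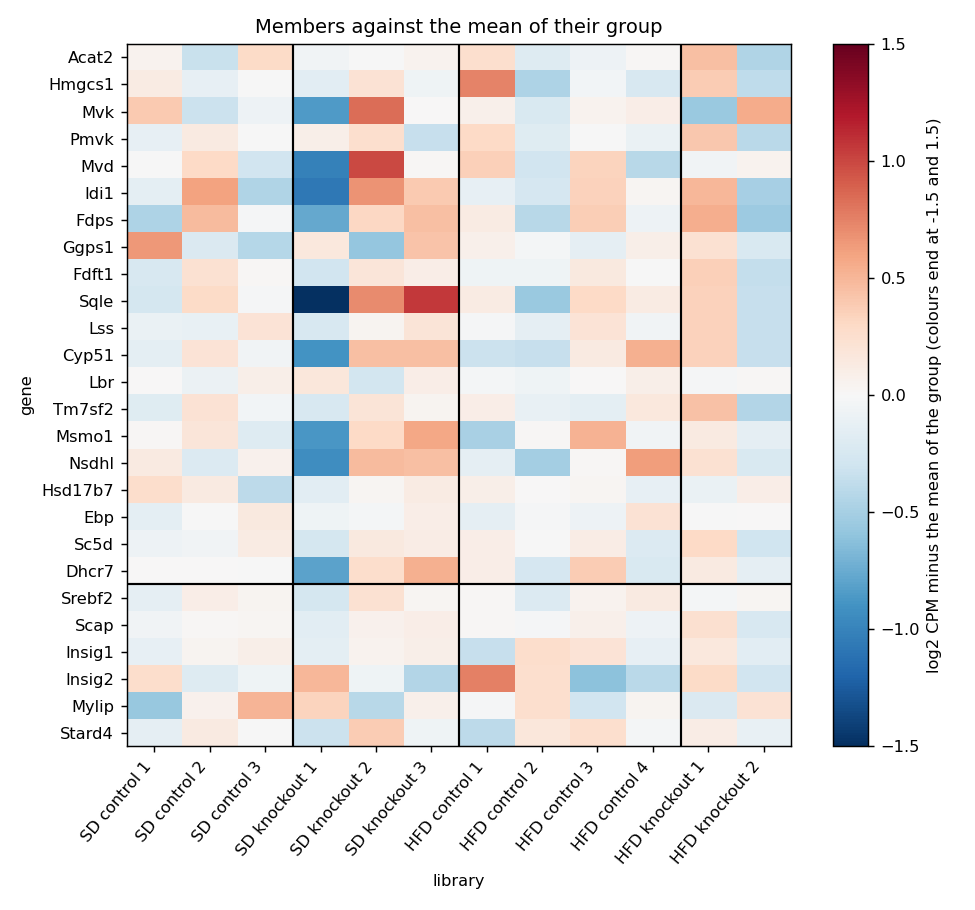
Log2 CPM of each member minus the mean of its group, with a row per gene, a column per library and the 20 enzymes above the horizontal line. SD knockout 1 is blue in most enzyme rows and HFD knockout 1 red, while HFD control 2 is mostly pale blue.

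The diet comparisons moved more of these genes, but every HFD library had a greater depth and a larger Rn45s share than any SD library. With all libraries thinned to the smallest depth, Lbr and Scap lost their calls in controls (adjusted p = 0.0563 and 0.125). In knockouts Lbr and Srebf2 lost theirs (0.383 and 0.0693), and no other member lost a diet call. Thinning evens out the number of counts alone, and the part of the Rn45s share was not tested. The comparisons between diets share no library with each other, and each shares its libraries with the knockout comparisons. In controls 10 members were higher on HFD and 2 lower, beside 16.5% and 13.6% of all genes. In knockouts 10 were higher and 1 lower, beside 14.9% and 11.7%. The median log2 fold change of the 26 members was 0.51 in controls and 0.57 in knockouts, beside 0.02 and 0.03 over all genes.

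Idi1 and Fdps had the widest diet differences. Idi1 stood at 2.73, 4.82 and 2.14 CPM in SD controls and at 154, 142, 214 and 172 in HFD controls. In knockouts it stood at 1.67, 6.40 and 5.22 on SD and at 285 and 143 on HFD. The log2 fold changes were 5.75 (SE 0.37, adjusted p = 6.95e-09) in controls and 5.62 (SE 0.37, adjusted p = 1.1e-08) in knockouts. Fdps stood at 8.20 to 16.1 in SD controls and 85.9 to 149 in HFD controls, with 3.31 (SE 0.32) in controls and 3.68 (SE 0.37) in knockouts. Both genes have near-identical pseudogene copies. In the GENCODE annotation Idi1 matched 3 pseudogenes over at least 200 bases at 90% identity or more, the longest match being 684 bases at 100%, and Fdps matched 5. Ggps1 and Fdft1 matched 1 each, and the other 22 members none. Reads of such genes can be placed on either copy, and how the authors counted them is not given. Over all genes tested, 41.0% of those with a copy were higher on HFD in controls, but 12.3% of those without, with median log2 fold changes of 0.36 and -0.02. In knockouts the shares were 38.1% and 10.93%. The diet values of these 4 genes are therefore uncertain, and the part of the copies in them was not tested. Acat2 also has a close paralog, Acat3, that can share its reads.

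Among the 22 members without a copy, 8 were higher on HFD in controls and 2 lower, beside 12.3% and 14.5% of all genes without a copy. In knockouts 8 were higher and 1 lower, beside 10.93% and 12.3%. In controls the 8 higher genes were Nsdhl (1.67, SE 0.30), Lss, the lanosterol synthase (1.17, SE 0.17), Pmvk (1.13, SE 0.23), Hsd17b7 (1.02, SE 0.14), Srebf2 (0.92, SE 0.17), Insig2 (0.85, SE 0.29), Dhcr7 (0.82, SE 0.23) and Insig1 (0.41, SE 0.14), as log2 fold changes. Lss stood at 24.5 to 30.5 CPM on SD and at 54.5 to 68.7 on HFD, and Srebf2 at 7.81 to 9.24 and 14.0 to 17.9, with no overlap for either. Lbr was lower, at 20.5 to 23.2 and 14.2 to 15.9 (log2 fold change -0.56, SE 0.14, adjusted p = 0.00525), and so was Scap (-0.36, SE 0.12, adjusted p = 0.0268). The calls of Scap, Insig1 and Insig2 were lost in 8, 6 and 6 of 13 alternative settings, and those of Lbr and Dhcr7 in 1 each.

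In knockouts the 8 higher genes were Nsdhl (1.22, SE 0.33), Hmgcs1 (1.15, SE 0.28), Pmvk (1.09, SE 0.26), Tm7sf2 (1.07, SE 0.23), Lss (1.07, SE 0.20), Sc5d (0.90, SE 0.17), Srebf2 (0.60, SE 0.18) and Insig1 (0.54, SE 0.17). The calls of Srebf2 and Insig1 were lost in 6 and 2 of 11 alternatives, those of Nsdhl, Hmgcs1, Pmvk and Tm7sf2 in 1 each. Without HFD knockout 1 the count of higher members was 4, Idi1 and Fdps included, instead of 10. Lbr was lower (-0.46, SE 0.16, adjusted p = 0.0448), a call lost in 9 of 11 alternatives. Hsd17b7 did not pass in knockouts, at 81.3 to 98.9 CPM on SD and 91.0 and 105 on HFD (log2 fold change 0.11, SE 0.16, adjusted p = 0.661), while its controls stood at 59.5 to 93.7 and 147 to 171. Sc5d showed the other order, with controls at 311 to 358 and 316 to 394 and knockouts at 172 to 229 and 308 to 468.

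**Figure D4:**
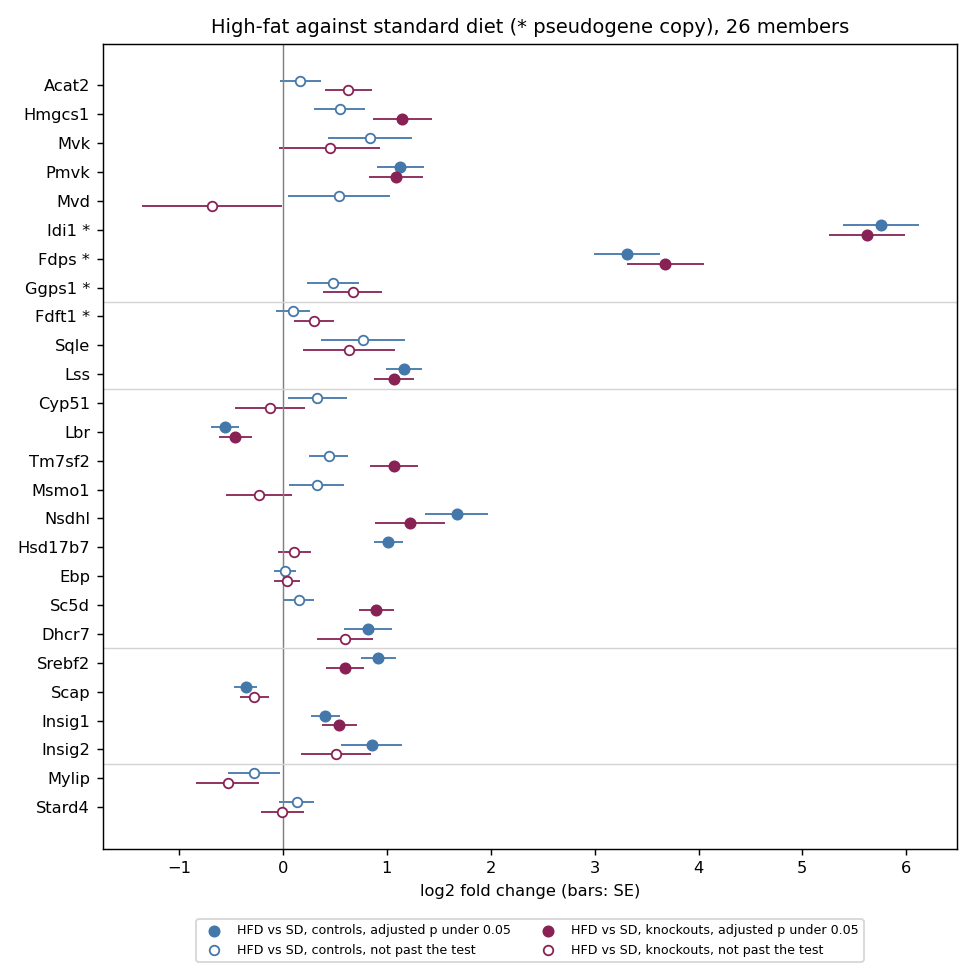
Log2 fold change of HFD against SD for the 26 members in controls and in knockouts, with bars of 1 SE. An asterisk marks the 4 genes with a pseudogene copy, and among them Idi1 and Fdps lie far to the right of all other members, at 3.31 or more.

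Genes that serve the same pathway were read as separate lists. Beside these lists and the marker lists, the shares over all genes were 2.94% lower and 1.44% higher on SD. They were 1.66% and 1.04% on HFD, and 5.36% and 3% averaged over the diets. Of 6 electron donors and complex partners of the sterol enzymes, 2 were lower in SD knockouts and 1 in HFD knockouts, and none was higher. Cyb5b, a cytochrome b5 gene, stood at 396, 398 and 443 CPM in SD controls and 225, 243 and 258 in SD knockouts. On HFD it stood at 343 to 467 in controls and 249.7 and 250 in knockouts, so the groups did not overlap on either diet. Its log2 fold changes were -0.77 (SE 0.12, adjusted p = 0.00138) and -0.66 (SE 0.13, adjusted p = 0.00988). The SD call held in all 12 alternatives. The HFD call was lost without HFD knockout 1 (adjusted p = 0.111) or HFD knockout 2 (0.0722), and with only the groups compared in the fit (0.0578). Cyb5a, the other cytochrome b5 gene of the list, did not pass on either diet. On SD its log2 fold change was -0.58 (SE 0.16, adjusted p = 0.0506), with every knockout below every control. On HFD it was 0.08 (SE 0.17), with overlapping groups. Cyb5r3, the reductase that charges cytochrome b5, stood at 571 to 620.5 and 348 to 387 on SD (-0.69, SE 0.15, adjusted p = 0.0153). That call was lost without SD control 3 (adjusted p = 0.0826), SD knockout 1 (0.0515) or SD knockout 2 (0.0729).

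Of 6 reported genes of SREBP cleavage and sterol sensing in the endoplasmic reticulum, none passed on SD and Rnf145 was higher on HFD. Rnf145, a ubiquitin ligase reported to act on SCAP, stood at 14.6 to 20.2 CPM in HFD controls and at 33.1 and 22.2 in knockouts (log2 fold change 0.67, SE 0.17, adjusted p = 0.0481). Of 10 genes of sterol transport and esterification, none passed on SD and Soat2 was higher on HFD. Soat2, which esterifies cholesterol in hepatocytes, stood at 15.8 to 26.1 in HFD controls and 36.8 and 38.2 in knockouts (0.75, SE 0.18, adjusted p = 0.0341). Neither call held with only the groups compared, after thinning, or without HFD control 2, HFD control 3 or HFD knockout 1. The call of Rnf145 was also lost without HFD control 4 and with the replicate block (adjusted p = 0.104), and that of Soat2 without HFD knockout 2. With a library left out the adjusted p reached 0.624 for Rnf145 and 0.193 for Soat2. Averaged over the diets Soat2 was higher (0.57, SE 0.15, adjusted p = 0.0238) and Lipa, the lysosomal lipase that frees cholesterol from its esters, was lower (-0.40, SE 0.11, adjusted p = 0.0382). The first call was lost in 5 of 17 alternatives and the second in 8, each time with 1 library left out, at adjusted p-values up to 0.0646 without SD control 2 and 0.180 without HFD knockout 2.

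None of 9 genes of the non-sterol isoprenoid branch, which makes ubiquinone, dolichol and prenyl groups, passed on either diet. Of 9 tested fatty acid targets that SREBP1 and SREBP2 share, 1 was lower on SD and none on HFD. On SD all 9 had a log2 fold change below 0 (median -0.56), beside 49.3% of all genes tested. Knockouts lay below all controls on SD in 6, beside 12.3%. On HFD 7 were below 0 (median -0.18), beside 51.1%, and 1 had knockouts below all controls, beside 11.9%. The gene that passed was Srebf1, the gene of SREBP1, at 78.1, 102 and 131 CPM in SD controls and 50.3, 65.2 and 63.4 in knockouts (-0.81, SE 0.17, adjusted p = 0.0138). Without SD control 3 or SD knockout 1 its adjusted p was 0.0838 or 0.0563. Averaged over the diets 3 were lower: Srebf1 (-0.47, SE 0.12, adjusted p = 0.0234), the fatty acid synthase Fasn (-0.99, SE 0.28, adjusted p = 0.0426) and the elongase Elovl6 (-0.91, SE 0.27, adjusted p = 0.0462). These calls were lost in 3, 9 and 9 of 17 alternatives, with the largest adjusted p-values (0.104, 0.159 and 0.185) without HFD knockout 2. Of 7 LXR sensors and targets, which respond to oxysterols, Abcg5 and Abcg8, which together form the sterol exporter, were lower on both diets. Abcg5 fell by 1.82 (SD) and 1.06 (HFD) on the log2 scale and Abcg8 by 1.57 and 0.99, and the HFD call of Abcg5 was lost when either HFD knockout was left out (adjusted p = 0.157 and 0.0739).

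Other cells' markers were read beside these results. None of 6 Kupffer and other myeloid markers and none of 5 endothelial markers passed on SD, on HFD or averaged over the diets. Of 6 lymphocyte markers 1 had enough counts to be tested, and it did not pass in these comparisons. Stellate and fibroblast markers summed to 332 to 392 CPM in SD controls and 438 to 512 in SD knockouts, and to 256 to 387 and 379 to 456 on HFD. Of these 6 genes none passed on either diet alone, and 3 (Col1a2, Col3a1, Reln) were higher averaged over the diets, calls lost in 4, 10 and 0 of 17 alternatives. Cholangiocyte markers summed to 50.6 to 53.9 and 64.7 to 197 on SD and to 27.4 to 105 and 88.4 to 99.6 on HFD, with the defining keratin Krt7 at 0 to 0.390. Most of each sum was Spp1, at 42.4 to 46.1 and 51.7 to 189 CPM on SD and 19.46 to 95.2 and 81.0 to 89.8 on HFD. On SD Epcam and Sox9 had log2 fold changes of 0.51 (SE 0.52) and 0.53 (SE 0.50), and Epcam lay above all controls in the knockouts. On HFD they had log2 fold changes of -0.25 (SE 0.44) and -0.22 (SE 0.40). Hepatocyte markers summed to 130409 to 160489 CPM in SD controls and 127878 to 179715 in SD knockouts, with none of 6 past the test. On HFD they summed to 111291 to 119188 and 135037 to 176704, and 1 of 6 (Ttr) was higher. The Ttr call was lost in 3 of 12 alternatives, among them with only the groups compared (adjusted p = 0.0664) and with the replicate block (0.0535). Most of each HFD sum was Alb, at 77075 to 84235 CPM in controls and 141831 and 99103 in knockouts. The part of these markers in the lower values of Insig1, Tm7sf2, Sc5d and Hsd17b7 was not tested.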

How the data were processed

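Per the labels' protocols, sequencing libraries came from Trizol-extracted total RNA and the Nugen Ovation RNA-Seq System V2. The authors deposited integer read counts for each gene symbol and library, not normalized. The submitters' processing notes name TopHat2 2.1.0, HTSeq, DESeq2 1.14.1 and mm9, and say nothing of strand or of reads with several placements. No label ties each library to a separate mouse, so p-values reflect the spread between libraries, which may be technical.

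The main test was edgeR 4.0.16 (R 4.3.3, limma 3.58.1), quasi-likelihood and two-sided, with TMM, filterByExpr at its minimum count of 10, 4 group means over 12 libraries, and Benjamini-Hochberg adjustment over 12015 genes. Its common biological coefficient of variation came to 0.153. The procedure was tried on simulated counts in which genes varied independently, so it was not tried on shifts that many genes of a library share. SE is derived from the test statistic, and ± gives the SD. Alternatives tried were DESeq2 1.42.0, RLE, no filter on low counts, a fit of only the groups compared, thinning to the smallest depth, a replicate block, and leaving out each library. The count of members without a pseudogene copy was added after the data were seen. Members and lists were chosen with earlier results of these data known. All 26 members are described. Genes of other lists are named where they passed in a knockout comparison, with a few others given beside them. A gene of these lists is not reported here. RefSeq promoters matched 22 of 26 members.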

Additional observations from a re-analysis of the deposited data

Results flagged for a closer look

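Mevalonate kinase (Mvk) stood at 3.97 CPM in HFD control 2 and at 4.92 to 5.07 in the other 3 HFD controls. The gap of that library to the nearest other was 0.865 of the group's whole range, which marks it as far from the others. About 1 in 20 groups would be marked so by chance, and all 26 members were searched in this group, with Mvk alone marked. The value rests on 32 reads in HFD control 2, beside 39 to 55 in the other HFD controls. HFD control 2 was the lowest of its group in 13 of the 20 enzymes, Mvk among them.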

How the results depend on the processing

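In the knockout comparison on HFD the count of lower members was 1, and it was 2 with DESeq2, 2 without the filter and 0 after thinning. For the difference between diets, DESeq2 called 1 member lower where edgeR called 0. In the diet comparison of controls 2 members were lower, but 1 without the filter, 0 after thinning and 1 with the replicate block. In that of knockouts 1 was lower, but 0 with DESeq2, without the filter, with only the groups compared, after thinning and with the replicate block.

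With 1 library left out, lower members numbered 0 to 3 in the SD knockout comparison (0 when SD control 3 was dropped, and 1 when SD control 2 or either of the SD knockouts 1 and 3 was) and 0 to 2 on HFD (2 without HFD control 1). Higher members numbered 0 in the first and 0 to 1 in the second. The lower count averaged over the diets was 2 to 3. Diet comparisons gave 7 to 10 higher and 1 to 2 lower in controls, and 4 to 11 higher and 0 to 1 lower in knockouts. Without HFD knockout 1, which leaves 1 library assumed to vary like the other groups, Hmgcs1 turned to -0.0092 in the HFD knockout comparison and Fdft1 to -0.084 in the diet comparison of knockouts. Without HFD knockout 2 they stood at 0.75 and 0.62. The cause was not tested.

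The labels share replicate numbers between groups, but same-numbered libraries deviated together by correlations of only -0.013 to 0.047 on SD and 0.0089 and 0.12 on HFD, so the numbers were not taken as pairs. With the replicate block the knockout counts stayed at 3 and 1 lower. SD libraries, at 2371167 to 3404570 counts, limit precision for Mvd, Mvk and Idi1, which stood under 7 CPM there.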
